A study of Mus musculus with 48 samples.

Results

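The dentate gyrus on the side of a kainate injection was compared between day 7 and day 3 after the injection. The comparison used 8 of the 48 libraries of the series, 4 from each day, and its members were found from the deposited side, treatment and day of each library. The mice were wild-type C57BL/6J. The series' design text gives their age as 6 to 8 weeks and the study's methods give an older range. Each carried a single injection into the hippocampus, of kainate or of saline vehicle, and was taken at day 3, day 7 or day 14. Dorsal dentate gyri of both sides were dissected from every mouse, which gave 4 mice for each treatment and day. The injected side is called the epileptogenic zone (EZ) and the opposite side the peri-ictal zone (PIZ). No genetic change was made in any group, so all groups share the surgery and the strain. The EZ kainate libraries of day 3 came from mice 30, 38, 42 and 44, and those of day 7 from mice 21, 23, 26 and 35. The 2 days are different mice, so no mouse was followed over time, and each library mixes all cell types of the dissected tissue. In such bulk tissue fewer cells of a type and less RNA per cell cannot be told apart.

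Kainate is an agonist of glutamate receptors, and its injection into the hippocampus starts status epilepticus, a prolonged seizure. Spontaneous seizures follow later. Granule cells, the principal neurons of the dentate gyrus, survive better than the pyramidal cells and interneurons around them. Astrocytes, which clear glutamate and potassium from the tissue, and microglia, its resident macrophages, both change state after status epilepticus. Both days fall in the latent period before spontaneous seizures begin, so the comparison asks what changed in the injected dentate gyrus within it.

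The libraries held between 17762656 and 25712975 counts over the series. Within the comparison they held 22141147 to 25712975 at day 3 and 20274280 to 24817764 at day 7, and the days did not differ in depth beyond the spread of the libraries (exact permutation test, two-sided p = 0.4, 70 arrangements). Granule cell identity was checked with Prox1, a transcription factor of this cell type, and Calb1, its calcium buffer calbindin. Prox1 stood at 272, 204, 250 and 264 CPM, the counts of a gene scaled to the library size, in mice 30, 38, 42 and 44 of day 3. It stood at 84, 277, 315 and 184 CPM in mice 21, 23, 26 and 35 of day 7. Calb1 read 44.7, 32.7, 93.3 and 36.5 CPM at day 3 against 14.3, 86.8, 113 and 20.5 CPM at day 7. The saline medians at day 3 and day 7 were 275 and 267 CPM for Prox1 and 121 and 123 CPM for Calb1. Both markers were detected in all 8 libraries, but the libraries of day 7 fell apart into a pair with low granule cell markers, mice 21 and 35, and a pair near the saline level, mice 23 and 26.

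The same split of the day 7 mice ran through many gene lists, and it stands before every result that follows. The mean log2 CPM of 10 mature granule cell genes lay 2.81 and 2.56 below the saline mean of the same day in mice 21 and 35. It lay 0.313 and 0.322 below in mice 23 and 26, and between 0.798 and 1.82 below in the 4 mice of day 3. Oligodendrocyte lineage genes lay 1.67 and 1.34 above saline in mice 21 and 35 but 0.0554 and 0.247 above in mice 23 and 26. The first principal component of the 8 libraries carried 48.1% of their variance and set mice 21 and 35, at 76.2 and 65.6, apart from mice 23 and 26, at -55.3 and -27.8. The day 3 mice lay between -53.2 and 27.8 on it. The second component, with 19.3% of the variance, ordered the libraries by day, from -40 to -3 at day 3 and from 8.77 to 43.1 at day 7. Xist, expressed from the inactive X chromosome, was at 1150 CPM or more in mice 30, 38, 23 and 26 and at 0.253 CPM or less in the others, so each day held 2 females and 2 males. At day 7 the males were mice 21 and 35, the pair with low granule cell markers, and the part of sex in that split was not tested.

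**Figure D1:**
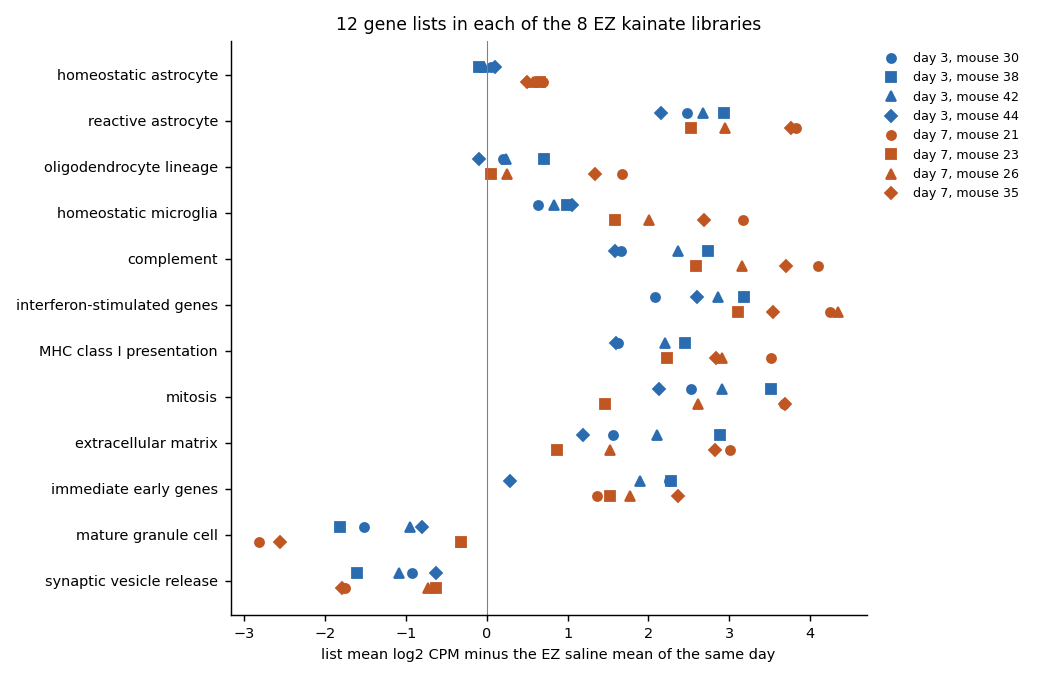
Mean log2 CPM of 12 gene lists in each of the 8 EZ kainate libraries, minus the mean of the 4 EZ saline libraries of the same day (x axis, log2 units). Blue symbols are day 3 and orange symbols day 7, with a symbol shape per mouse. The homeostatic astrocyte list separates the days in every mouse, whereas mature granule cell genes split day 7 into a pair near -2.81 and -2.56 and a pair near -0.313 and -0.322. The saline mean subtracted for the homeostatic astrocyte list fell from 7.64 at day 3 to 7.4 at day 7, which widens its gap between the days.

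Markers of tissue outside the dentate gyrus were read beside this split. The summed level of 5 thalamus markers was 63.6 to 99 CPM at day 3 and 64.5, 87.3, 148 and 180 CPM at day 7, highest in mice 21 and 35. The summed level of 7 markers of meninges and fibroblasts was 89 to 345 CPM at day 3 and 60.3 to 420 CPM at day 7, again highest in mice 21 and 35 within day 7. The summed level of 4 CA1 pyramidal cell markers was 55.9 to 110 CPM at day 3 and 51.4 to 106 CPM at day 7. The 5 tested of 7 choroid plexus markers summed to 20.2 to 30 CPM at day 3 and 6.22 to 40.7 CPM at day 7, with its defining gene Ttr, transthyretin, at 2.03 CPM or less in all 8 libraries. Blood markers summed to 111 to 252 CPM at day 3 and 88.2 to 180 CPM at day 7. By edgeR none of the genes on these lists was called between the days. DESeq2 and limma-voom called Igf2, of the meninges list, which edgeR also called without mouse 38, 23 or 26, and edgeR called Prlr, of the choroid plexus list, without mouse 23. The part of such tissue in the results was not tested.

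Between day 3 and day 7, 326 of 21390 tested genes were differentially expressed (DEG) in the EZ of kainate mice, 229 higher and 97 lower at day 7. The threshold for a DEG was a fold change above 1.5 together with a p under 0.01, adjusted by Benjamini-Hochberg, in edgeR's quasi-likelihood test, fitted to all 48 libraries with a mean for each of the 12 groups. The DEG made up 1.07% of tested genes in the upward and 0.453% in the downward direction. The median log2 fold change over all genes was -0.0011, and 10651 of 21390 genes had a positive sign. Of the raised DEG 141 changed more than 2-fold and 39 more than 4-fold, and of the lowered DEG 58 and 23. All 4 libraries of day 7 lay above or below all 4 of day 3 for 1289 genes, 6.03% of those tested (3.62% above and 2.41% below), and for 165 of the raised and 70 of the lowered DEG. Most DEG were protein coding, 186 of the raised and 83 of the lowered.

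The call count depended on the libraries in the fit and on single mice. The median standard deviation of log2 CPM was 0.259 among the EZ kainate libraries of day 3 and 0.34 among those of day 7, against 0.157 and 0.161 in EZ saline. Fitted to the 8 libraries alone, edgeR called 0 genes, with 2095 genes at an unadjusted p under 0.05. In that fit Hmcn2 and Lag3 had the smallest adjusted p, 0.0338 each. Of the 314 DEG that could be tested there, 314 kept their sign and 313 had an unadjusted p under 0.05. The same 8 libraries gave the fold changes that chose these genes, so both counts were nearly fixed in advance and give the calls no support. Leaving out single mice gave 156 DEG without mouse 30, 195 without mouse 42, 137 without mouse 21, 208 without mouse 35 and 705 without mouse 23. A set of 89 DEG, 68 raised and 21 lowered, was called in each of the 8 fits that left out a mouse. Without mice 21 and 35 together 262 genes were called, 116 raised and 146 lowered, and 103 of them were among the 326. Armc9, H2-T22, P2ry12, Sall1, P2ry13, Apoe, S100b, Cnp, Aspa, Mbp, Gal, Egr3, Hcn2, Rgs10, Srebf1, Nqo1, Srxn1, Wnt7b, Gpam and Gnb5, all described in what follows, were not called there.

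**Figure D2:**
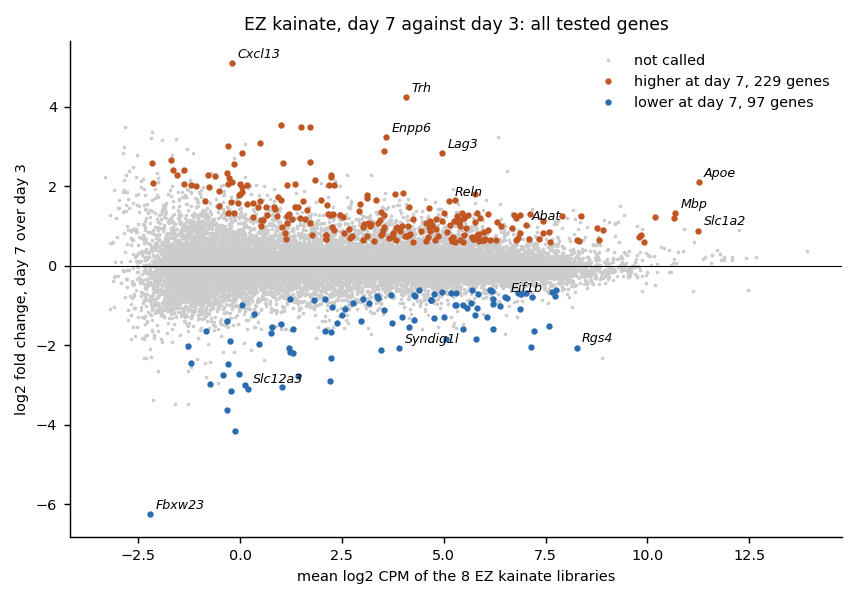
Log2 fold change of day 7 over day 3 in the EZ of kainate mice (y axis) against the mean log2 CPM of the 8 libraries (x axis), with 1 point per tested gene. Orange points are the 229 genes called higher at day 7, blue points the 97 called lower, and grey points the genes not called.

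The sequence before the transcription start is given for 3 of the called list members as context for the motif shares that follow. The sequences are the 250 bases upstream of the start, from RefSeq on build GRCm38.p6, 5′ to 3′ on the strand of the gene. They belong to Rgs4 (chr1:169747643-169747892, minus strand), the lowered list member with the smallest p, to Enpp6 (chr8:46986637-46986886, plus strand), a raised oligodendrocyte gene, and to Cmpk2 (chr12:26468965-26469214, plus strand), the called member of the interferon-stimulated list.
Rgs4: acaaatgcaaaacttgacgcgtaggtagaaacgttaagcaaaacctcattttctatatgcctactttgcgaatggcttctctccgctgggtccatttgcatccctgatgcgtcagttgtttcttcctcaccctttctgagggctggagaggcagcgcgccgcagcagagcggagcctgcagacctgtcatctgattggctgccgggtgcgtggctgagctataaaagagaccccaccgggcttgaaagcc
Enpp6: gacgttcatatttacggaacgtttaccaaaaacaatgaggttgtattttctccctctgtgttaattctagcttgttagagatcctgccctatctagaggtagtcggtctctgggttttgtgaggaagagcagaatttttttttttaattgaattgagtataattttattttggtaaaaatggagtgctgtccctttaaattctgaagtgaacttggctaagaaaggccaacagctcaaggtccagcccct
Cmpk2: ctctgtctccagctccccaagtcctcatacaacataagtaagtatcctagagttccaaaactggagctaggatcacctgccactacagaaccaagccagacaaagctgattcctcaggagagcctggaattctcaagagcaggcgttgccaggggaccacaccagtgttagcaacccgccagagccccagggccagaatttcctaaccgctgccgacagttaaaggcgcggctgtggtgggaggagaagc
No letters stand in capitals, because none of the motifs searched on both strands matched in these 3 windows. Of 6 promoters read in this way, that of Hmcn2, not printed, held a match, to TGANTCA and -101 bases from the start. The motifs, none of which holds another, were GAAANNGAA (part of the interferon response element), TGACGTCA (the cyclic AMP response element), TGANTCA (the AP-1 site), TTTGGCGC and TTTCGCGC (E2F sites) and TTTGAA (the cell cycle homology region). Over the DEG with a promoter in the table, GAAANNGAA stood before 12.8% of 164 raised and 6.15% of 65 lowered genes, beside 7.64% of 12819 tested genes. TGANTCA stood before 6.71% of raised, 13.8% of lowered and 5.76% of all. TGACGTCA stood before 1.83%, 1.54% and 2.76%, and TTTGAA before 13.4%, 9.23% and 13.5%. The E2F letters stood before 0.61% of raised genes or fewer and 0.819% of all or fewer. These shares are descriptions and were not tested.

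Several of the most strongly supported raised genes lay below saline at day 3 and near it at day 7. Abat, on chromosome 16 (8331233 to 8439996, GRCm39), encodes the transaminase that breaks down GABA. It read 85.1, 84.1, 92.8 and 106 CPM at day 3 and 174, 231, 186 and 156 CPM at day 7, with saline medians of 203 and 209. The log2 fold change was 1.02 ± 0.11 (SE, n = 4 against 4, edgeR adjusted p = 2.86e-07), and the days did not overlap. This SE and p, like those that follow, rest on a spread shared by all 12 groups and not on these 8 libraries alone. Bcan encodes brevican, a proteoglycan of the perineuronal matrix, and rose from 62.1 to 88.9 CPM at day 3 to 165 to 207 CPM at day 7, a log2 fold change of 1.28 ± 0.15 (SE). Reln encodes reelin, the secreted glycoprotein that orders neuronal layers. Reln read 9.76, 24.4, 23.2 and 26.6 CPM at day 3 and 70.6, 50.7, 49 and 87.9 CPM at day 7, a log2 fold change of 1.62 ± 0.20 (SE, edgeR adjusted p = 7.58e-07). Its saline medians were 65.8 and 61.1 CPM, so the day 7 mice bracketed the saline level and the day 3 mice lay below it. The transcript Gm6145 also rose, by a log2 fold change of 0.92 ± 0.11 (SE).

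Lag3, Enpp6 and Pla2g7 exceeded the saline median at day 7 in all 4 mice. Lag3 encodes a surface receptor of lymphocytes and microglia. It read 7.5, 13.3, 13.7 and 13.3 CPM at day 3 and 126, 65, 80.6 and 69.1 CPM at day 7, against saline medians of 9.77 and 12.2, with a log2 fold change of 2.83 ± 0.38 (SE, edgeR adjusted p = 7.24e-06). Enpp6, on chromosome 8 (47439919 to 47549797, GRCm39), encodes a choline phosphodiesterase that marks newly forming oligodendrocytes. Enpp6 read 3.71, 6.39, 3.19 and 4.29 CPM at day 3 and 67.5, 12.9, 20.2 and 65.5 CPM at day 7. All day 7 values lay above all day 3 values, the highest in mice 21 and 35, and the log2 fold change was 3.24 ± 0.40 (SE, edgeR adjusted p = 1.33e-06). Pla2g7, the platelet-activating factor acetylhydrolase, rose from 118 to 138 CPM at day 3 to 203 to 272 CPM at day 7, against saline medians of 148 and 147. The transcript 9630013A20Rik and the gene Atp10b lay below saline at day 3 and around it or above at day 7. 9630013A20Rik, the gene with the smallest p of all, rose from 0.918 to 1.15 CPM to 5.38 to 17.4 CPM, with saline medians of 3.75 and 6.05 and a log2 fold change of 3.48 ± 0.37 (SE). Atp10b, a phospholipid flippase, rose from 0.254 to 0.421 CPM to 1.05 to 2.19 CPM.

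**Figure D3:**
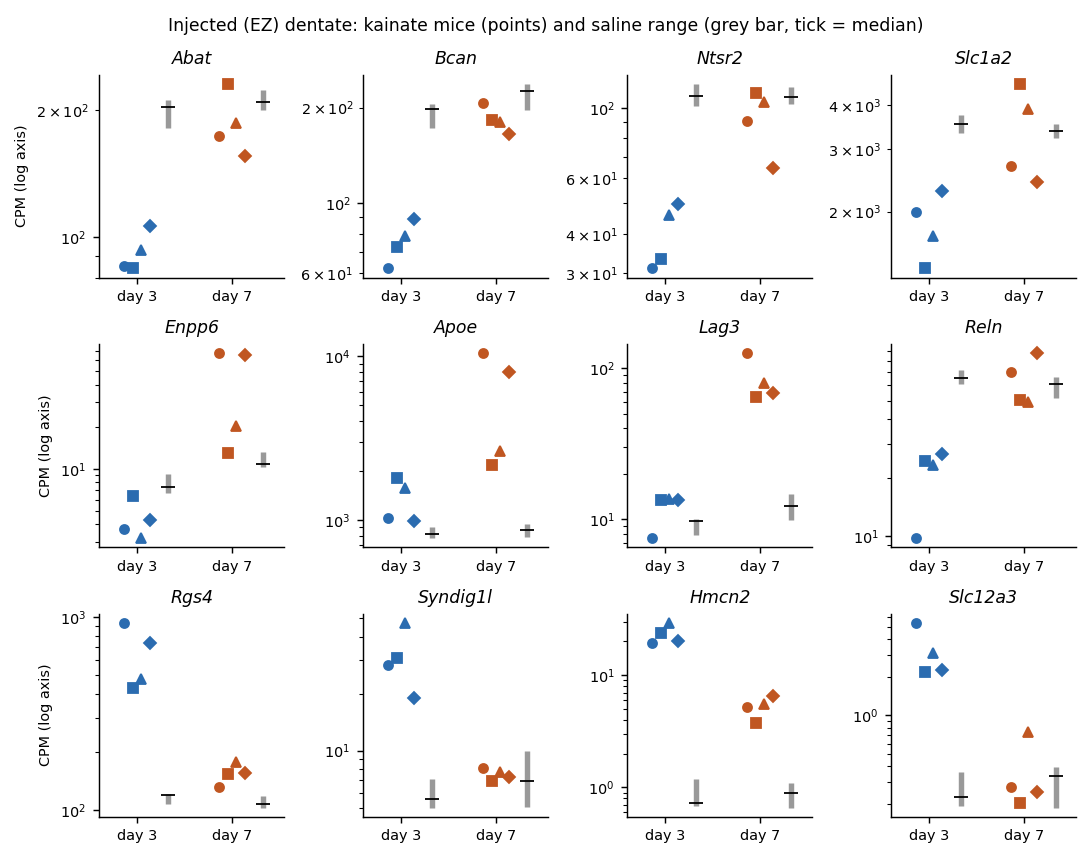
CPM on a log axis for 12 genes in the EZ libraries of day 3 (blue) and day 7 (orange) kainate mice, 1 point per mouse, with the range of the 4 EZ saline libraries of the same day as a grey bar and their median as a tick. For Abat the day 3 points lie at 84.1 to 106 CPM, below the saline medians of 203 and 209, and for Rgs4 they lie at 427 to 935 CPM, above the saline medians of 119 and 108.

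The leading lowered genes were high at day 3 and fell towards the saline level by day 7. Rgs4, on chromosome 1 (169569046 to 169575218, GRCm39), encodes a regulator that switches off signaling by G protein-coupled receptors in neurons. It read 935, 427, 479 and 733 CPM at day 3 and 131, 153, 177 and 156 CPM at day 7, with saline medians of 119 and 108. Its log2 fold change was -2.06 ± 0.24 (SE, edgeR adjusted p = 5.31e-07), and no day 7 mouse reached the lowest day 3 mouse. Syndig1l, a relative of a synapse differentiation protein, read 28.4, 31, 47.4 and 19 CPM at day 3 and 8.11, 6.88, 7.72 and 7.22 CPM at day 7, a log2 fold change of -2.07 ± 0.23 (SE, edgeR adjusted p = 3.17e-07). Its saline medians were 5.53 and 6.9 CPM. Slc12a3, the thiazide-sensitive sodium-chloride cotransporter known from the kidney, fell from 2.18 to 5.36 CPM to 0.204 to 0.741 CPM, a log2 fold change of -3.09 ± 0.38 (SE). Hmcn2, a large extracellular matrix protein of the hemicentin family, fell from 19.3 to 29.3 CPM to 3.77 to 6.55 CPM, and lay above its saline medians of 0.729 and 0.895.

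The other lowered genes with the smallest p changed less or were rare. Eif1b, a translation initiation factor, read 98 to 144 CPM at day 3 and 64.5 to 73.8 CPM at day 7, a log2 fold change of -0.79 ± 0.10 (SE). Pdlim7, a cytoskeletal adaptor, read 44.6 to 47.2 CPM and then 26.1 to 33 CPM, below saline medians of 34.2 and 36.4 at day 7. Plekha6 read 61.5 to 104 CPM and then 30.6 to 51.8 CPM, with saline at 59 and 63.3. Armc9, a protein of the cilium, fell by 0.67 on the log2 scale and lost its call without mouse 30. Fbxw23 was detected with 44 counts over the 4 libraries of day 3 and 0 counts over those of day 7, at least 13.9-fold lower when 3 counts over the group are allowed at day 7, and DESeq2 and limma-voom did not call it. For 9430081H08Rik the days overlapped, at 0.497 to 3.6 CPM against 0.204 to 0.498 CPM.

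The position of the DEG against saline differed between the 2 directions. The 2 kainate-against-saline comparisons and the day comparison share libraries, so the following values describe the DEG and test nothing. The 229 raised DEG had a median log2 fold change over EZ saline of -0.26 at day 3 and 0.81 at day 7. Of them, 65 were DEG below saline at day 3 and 11 above it, where 8.61% of all tested genes were called below and 16.1% above. There were 8 below and 123 above at day 7, where 11.9% and 20.6% of all tested genes were called. The 97 lowered DEG had medians of 1.10 at day 3 and 0.08 at day 7, with 60 of them DEG above saline at day 3 and 20 above and 20 below at day 7. For the lowered DEG the count above saline at day 7 was thus near the share of all tested genes, 20.6%, while the equal count below saline exceeded its share, 11.9%. The libraries of day 14 entered the contrast of the days only through the shared estimate of spread. At day 14 the median over saline was 0.39 for the raised DEG, of which 169 lay above saline, and -0.01 for the lowered DEG, of which 47 lay above, where 50.6% of all tested genes did.

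**Figure D4:**
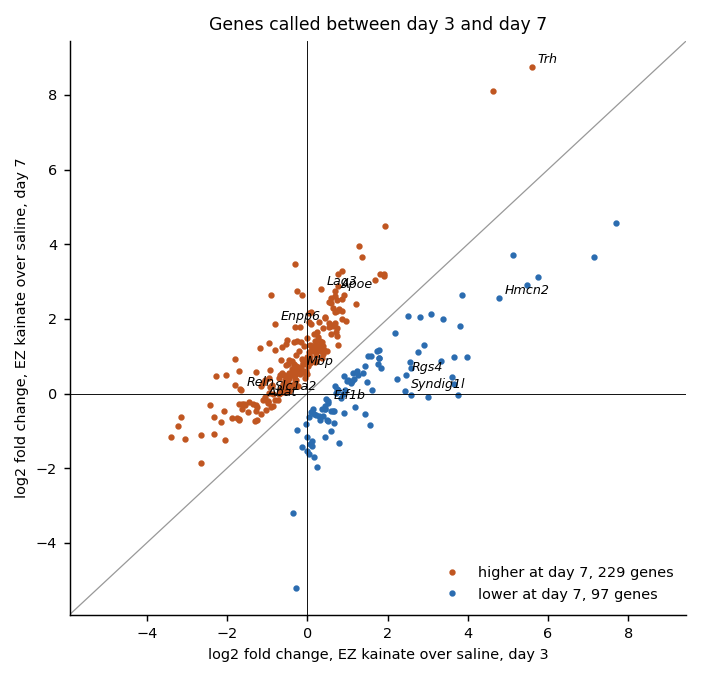
Log2 fold change of EZ kainate over EZ saline at day 3 (x axis) and at day 7 (y axis) for the 229 genes raised (orange) and 97 genes lowered (blue) between the days. The grey diagonal marks equal values, and the distance from it reflects the day change that chose the genes together with the change in saline. Raised genes center on -0.26 at day 3 and 0.81 at day 7, and lowered genes on 1.10 and 0.08.

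Of 19 homeostatic astrocyte genes 5 were DEG upward, 0 downward and 14 were not called, where 1.07% of all tested genes were called upward. The list median log2 fold change was 0.32, against -0.25 in the saline EZ over the same days. Ntsr2, a neurotensin receptor of astrocytes, read 31.1, 33.2, 46 and 49.5 CPM at day 3 and 90.8, 111, 104 and 64.3 CPM at day 7, a log2 fold change of 1.21 ± 0.15 (SE, edgeR adjusted p = 8.81e-07). All day 7 mice lay above all day 3 mice, and its saline medians were 109 and 108 CPM. Slc1a2, the main glutamate transporter of the forebrain, read 1990, 1380, 1700 and 2290 CPM at day 3 and 2700, 4600, 3900 and 2420 CPM at day 7. It changed by 0.89 ± 0.14 on the log2 scale (SE, edgeR adjusted p = 0.000123), and mice 21 and 35 were the lowest of day 7. Aldoc, the astrocyte aldolase, rose from 268 to 458 CPM to 525 to 769 CPM, and its saline medians of 674 and 598 lay within the day 7 range.

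Among further astrocyte genes S100b and Mlc1 rose. S100b, a calcium-binding protein, read 96.8 to 130 CPM at day 3 and 144 to 210 CPM at day 7, above its saline medians of 109 and 99.6, and lost its call without mouse 21. Mlc1, a membrane protein of astrocyte endfeet, read 243 to 273 CPM and then 336 to 466 CPM, with saline at 221 and 181. Aldh1l1, the cytosolic folate enzyme used as an astrocyte marker, read 114 to 150 CPM and then 91 to 149 CPM (log2 fold change -0.18 ± 0.17 SE, edgeR adjusted p = 0.578). Aqp4, the water channel, read 539 to 845 CPM and then 734 to 880 CPM, and the glutamate transporter Slc1a3 read 820 to 1070 CPM and then 1020 to 1210 CPM. Aldh1l1, Aqp4 and Slc1a3 were above their saline medians in all 8 libraries, unlike Slc1a2, Ntsr2 and Aldoc at day 3.

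Of 20 reactive astrocyte genes, 1 was called, and it fell, where 0.453% of all tested genes were called lower. Nes, which encodes the intermediate filament nestin of progenitors and reactive astrocytes, read 47.1, 169, 105 and 55.5 CPM at day 3 and 54.6, 16.9, 31.9 and 55.6 CPM at day 7, a log2 fold change of -1.24 ± 0.30 (SE, edgeR adjusted p = 0.00853). Mice 21 and 35 overlapped day 3, and the call was lost without mouse 38, 42, 21, 23 or 26. Gfap, the filament of reactive astrocytes, stood at 4710 to 5560 CPM and 4850 to 6780 CPM and was not called. Timp1, an inhibitor of matrix proteases, read 40.5 to 112 CPM at day 3 and 10.2 to 40.3 CPM at day 7 without overlap, but its adjusted p was 0.108 by edgeR. The list median was -0.33. In the saline EZ the same list had a median of -0.80 from day 3 to day 7, with Gfap at medians of 1940 and 617 CPM and 0 genes called there.

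Of 22 oligodendrocyte lineage genes 5 were DEG upward, beside 1.07% of all tested genes, 17 were not called, and the list median was 0.88. Among them, besides Enpp6, were Cnp, Aspa and Mbp. Cnp, a myelin phosphodiesterase, read 135, 219, 167 and 143 CPM at day 3 and 646, 204, 233 and 497 CPM at day 7, a log2 fold change of 1.25 ± 0.23 (SE, edgeR adjusted p = 0.000887). Mbp, the myelin basic protein, read 1030, 1530, 1120 and 736 CPM at day 3 and 4760, 1920, 1530 and 2900 CPM at day 7, a log2 fold change of 1.33 ± 0.28 (SE). Aspa, which splits N-acetylaspartate for lipid synthesis, read 3.49 to 7.27 CPM and then 7.06 to 22.1 CPM.

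The oligodendrocyte values followed the day 7 split. For Cnp, mouse 23 lay below the highest day 3 mouse. Without mice 21 and 35 the log2 fold change of Cnp was 0.41, of Mbp 0.65 and of Aspa 0.68, and none was called, whereas Enpp6 kept its call at 1.92. Single mice ended these calls too, mouse 21 for Cnp and mouse 30, 42, 44 or 21 for Mbp and Aspa. Of the list, 4 genes had a negative sign. Among them, chosen after their values were seen, Pdgfra, the growth factor receptor of oligodendrocyte precursors, read 56.2 to 134 CPM and 44.9 to 108 CPM (log2 fold change -0.30), and Olig2, a lineage transcription factor, read 20.4 to 40 CPM and 14.3 to 39.4 CPM (log2 fold change -0.24).

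**Figure D5:**
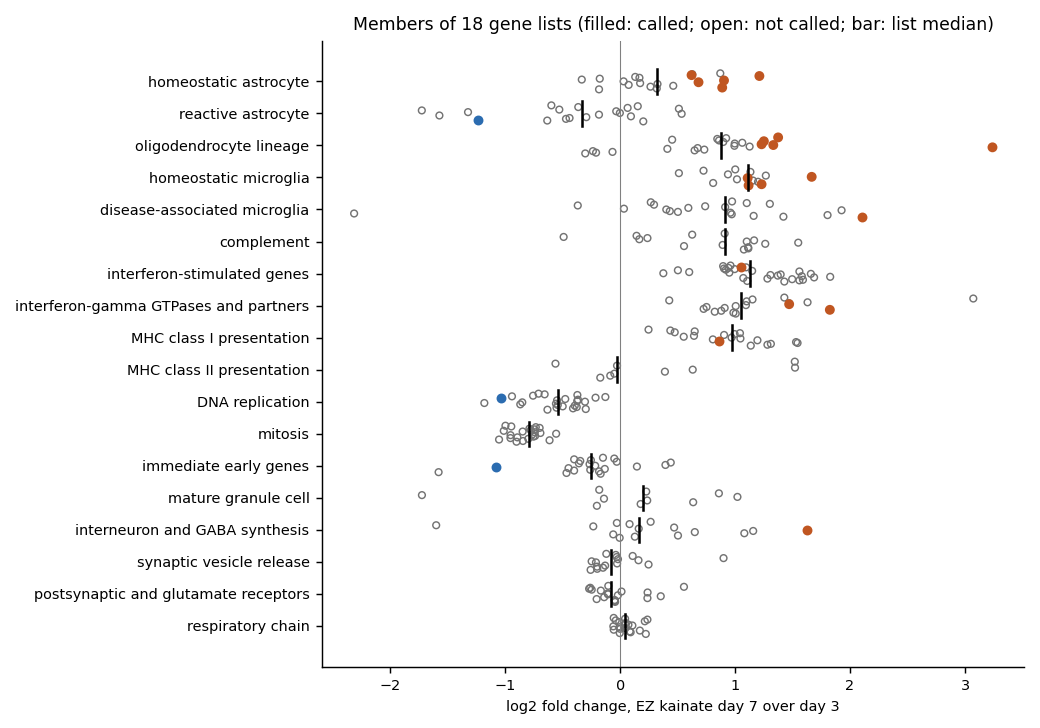
Log2 fold change of day 7 over day 3 (x axis) for the tested members of 18 gene lists (rows), with 1 point per gene. Filled points are called genes, open points are not called and the black bar is the list median. The medians lie at 0.32 for homeostatic astrocyte, 0.88 for oligodendrocyte lineage, 1.11 for homeostatic microglia and -0.79 for mitosis genes.

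Of 14 tested homeostatic microglia genes 4 were DEG upward, beside 1.07% of all tested genes, all 14 had a positive sign and the list median was 1.11. For 2 of the 14 all mice of day 7 lay above all mice of day 3, beside 3.62% of all tested genes, and the mean log2 CPM of the list was 6.33 in mouse 44 of day 3 as in mouse 23 of day 7. Siglech, a sialic acid receptor of microglia, read 17.5, 14.5, 19.8 and 41 CPM at day 3 and 114, 60.6, 67.5 and 52.2 CPM at day 7, a log2 fold change of 1.67 ± 0.28 (SE, edgeR adjusted p = 0.000258). The days did not overlap, and 3 of the 4 day 3 mice lay below the saline median of 28.5. P2ry12, the purinergic receptor that guides microglial processes, read 49.7, 43.6, 42.8 and 88.1 CPM and then 165, 86.8, 91.7 and 143 CPM, a log2 fold change of 1.12 ± 0.22 (SE). Mouse 44 of day 3 stood out as high, and the call was lost without mouse 30, 42 or 21.

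Sall1, a transcription factor of microglial identity, read 33.4 to 46.1 CPM at day 3 and 45.4 to 133 CPM at day 7, and P2ry13, a second purinergic receptor, read 25.6 to 36.2 CPM and 36 to 117 CPM. Both overlapped between days. The call of Sall1 was lost without mouse 30, 42, 21 or 35 and that of P2ry13 also without mouse 38 or 44. Without mice 21 and 35 their log2 fold changes were 0.43 and 0.46 and neither was called, while Siglech kept its call at 1.47. In the saline EZ the list median was -0.51 from day 3 to day 7.

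Of 21 genes of disease-associated microglia 1 was a DEG, upward, beside 1.07% of all tested genes. A positive sign was held by 19 of them, beside 10651 of 21390 tested genes. The list median was 0.91, against -0.54 in the saline EZ over the same days. Apoe, the lipid carrier of astrocytes and activated microglia, read 1020, 1800, 1570 and 982 CPM at day 3 and 10400, 2150, 2620 and 7960 CPM at day 7, a log2 fold change of 2.11 ± 0.35 (SE, edgeR adjusted p = 0.000183). Every day 7 mouse lay above every day 3 mouse, with mice 21 and 35 far above the other pair, and without them the log2 fold change was 0.84 and not called. Cst7, a cysteine protease inhibitor, read 17.6 to 39.4 CPM and 56.7 to 156 CPM without overlap, with an edgeR adjusted p of 0.0364. Spp1, osteopontin, read 701, 4400, 2560 and 129 CPM at day 3 and 763, 34.7, 151 and 615 CPM at day 7, and was not called (edgeR adjusted p = 0.0843). None of 15 complement genes was called by edgeR, with a list median of 0.91. C1qa and C1qb, subunits of the initiating complex, read 289 to 670 and 324 to 694 CPM at day 3 and 373 to 1660 and 415 to 1780 CPM at day 7.

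Interferon-responsive genes were positive throughout while few passed the test. All 28 interferon-stimulated genes had a positive sign, 11 had all mice of day 7 above all of day 3, beside 3.62% of all tested genes, and 1 was a DEG, beside 1.07%, with a list median of 1.13. Cmpk2, a mitochondrial nucleotide kinase, read 13.7, 18.9, 16.1 and 22.5 CPM at day 3 and 39.3, 28.7, 54.2 and 25.1 CPM at day 7, a log2 fold change of 1.05 ± 0.15 (SE, edgeR adjusted p = 2.17e-05). Its saline medians were 17.2 and 19 CPM. Irf7, the transcription factor that amplifies the response, read 24.8 to 50.7 CPM and 75.7 to 170 CPM, with an edgeR adjusted p of 0.0487, and Ifit3 read 29.6 to 69.4 CPM and 84.2 to 230 CPM, with an adjusted p of 0.0331. Mouse 26 was the highest or second highest of day 7 for Cmpk2, Irf7 and Ifit3, which differs from the myelin and granule cell split.

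Of 18 interferon-gamma GTPases and partners 2 were DEG upward, beside 1.07% of all tested genes, and all 18 were positive, with a list median of 1.05. Gbp6, a guanylate-binding protein, read 6.16 to 10 CPM at day 3 and 21.6 to 42.8 CPM at day 7, a log2 fold change of 1.82 ± 0.40 (SE, edgeR adjusted p = 0.00389). Iigp1, an immunity-related GTPase, read 7.15 to 14 CPM and 18.4 to 51.2 CPM, a log2 fold change of 1.47 ± 0.35 (SE). Of 19 genes of class I presentation 1 was a DEG upward, beside the same 1.07%. It was H2-T22, at 17 to 33.7 CPM and 31.3 to 64 CPM, and all 19 were positive with a list median of 0.97. The calls of Gbp6 and H2-T22 were lost without mouse 30, 42, 44, 21 or 26, and that of Iigp1 without any of these or mouse 38. Reads of such closely related family members can be counted for the wrong member, so single members are uncertain. None of 9 tested class II genes was called by edgeR, with a list median of -0.03. Ctss, the protease that trims the invariant chain, read 276 to 599 CPM and 602 to 2080 CPM, with an adjusted p of 0.0229, and was called by DESeq2, by limma-voom and by edgeR without mouse 23. H2-DMa, the peptide exchange factor of class II, read 12.5 to 18.7 CPM and 14.7 to 30.6 CPM.

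Chemokine and leukocyte genes gave a DEG in each direction. Of 20 tested chemokine and cytokine genes 1 was called, upward, beside 1.07% of all tested genes. Cxcl13, the chemokine that attracts B cells, read 0.153, 0.0765, 0.145 and 0.168 CPM at day 3 and 5.53, 1.58, 10.9 and 1.24 CPM at day 7, with saline medians at 0. The log2 fold change was 5.10 ± 1.04 (SE, edgeR adjusted p = 0.00434). It rested on 14 counts over the 4 day 3 libraries, and the call was lost without mouse 30, 38, 42, 44, 21 or 26. Of 12 tested monocyte, macrophage and neutrophil genes 1 was called, downward, beside 0.453% of all tested genes. Chil3, a chitinase-like protein of infiltrating myeloid cells, read 9.33, 17.6, 15.5 and 0.758 CPM at day 3 and 2.31, 0.051, 1.25 and 2.57 CPM at day 7, a log2 fold change of -2.78 ± 0.64 (SE, edgeR adjusted p = 0.00648). Mouse 44 of day 3 lay within the day 7 range, and the call was lost in 7 of the 8 fits that left out a mouse, the exception being mouse 44. It was also lost with DESeq2 and with the mouse as a random block. Of the 8 tested of 22 lymphocyte genes none was called by edgeR, while 7 had a positive sign and the list median was 1.18, with members from -0.02 to 2.09. Ptprc, the pan-leukocyte antigen, read 29.1 to 69.9 CPM and 28.5 to 108 CPM, and Lck, the T cell kinase, 1.31 to 1.76 CPM and 1.33 to 1.69 CPM.

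Cell cycle genes gave 1 call. All 25 DNA replication genes had a negative sign, where 10651 of 21390 tested genes had a positive one. The list median was -0.54, against -0.20 in the saline EZ. A DEG was 1 of the 25, beside 0.453% of all tested genes called lower. Ccne2, a cyclin of the entry into S phase, read 6.96, 9.14, 6.89 and 4.93 CPM at day 3 and 3.88, 1.94, 3.86 and 3.86 CPM at day 7, a log2 fold change of -1.04 ± 0.22 (SE, edgeR adjusted p = 0.00268), and lost its call without mouse 38. All 23 mitosis genes were negative, with a list median of -0.79 and none called by edgeR. Mki67, a marker of dividing cells, read 68.3, 137, 85 and 49.3 CPM at day 3 and 69.4, 11.3, 32.6 and 68.4 CPM at day 7, so mice 21 and 35 overlapped day 3. Top2a, a topoisomerase, read 43.7 to 117 CPM and 11.4 to 63.7 CPM. In the saline EZ the mitosis list had a median of -1.21 over the same days, with Mki67 at medians of 8 and 2.7 CPM.

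Neuronal gene lists mostly did not separate the days. None of 10 mature granule cell genes was called by edgeR, with a list median of 0.20 that turned negative without mouse 38, 23 or 26. Of 15 interneuron and GABA synthesis genes Reln was the only DEG, upward, beside 1.07% of all tested genes. Sst, somatostatin, read 0.689, 2.18, 5.37 and 12.4 CPM at day 3 and 21.4, 9.33, 12.3 and 0.207 CPM at day 7, below its saline medians of 42 and 52.7 in all 8 libraries. Gad1, the main GABA-synthesizing enzyme, read 146 to 232 CPM and 82.6 to 246 CPM. Nos1, neuronal nitric oxide synthase, read 144 CPM in mouse 44 and 16.7 to 29.2 CPM in the other mice of day 3, against 5.39 to 40.1 CPM at day 7.

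None of 16 synaptic vesicle genes, 18 postsynaptic genes, 7 kainate receptor genes, 12 GABA-A receptor genes or 19 potassium channel genes was called by edgeR. Their medians lay between -0.22 for kainate receptor genes and -0.05 for GABA-A receptor genes. The medians of all but the kainate receptor genes changed sign without mouse 21 and without mouse 35. Snap25, a vesicle fusion protein, read 843, 476, 658 and 887 CPM at day 3 and 383, 902, 887 and 441 CPM at day 7, so the low values of day 7 were those of mice 21 and 35. Camk2a, the calcium-dependent kinase of excitatory synapses, read 1150 to 2290 CPM and 884 to 3710 CPM. Cplx2 and Ppp3ca, and the receptor and channel genes Grik5, Neto1, Gabrb1 and Kcnq3, overlapped between days as well, with log2 fold changes between -0.32 and 0.08. Hcn2, a pacemaker channel, was the DEG of 18 sodium, calcium and HCN channel genes, upward, beside 1.07% of all tested genes. It read 42.9 to 54.5 CPM and 64.7 to 90.7 CPM, a log2 fold change of 0.63 ± 0.09 (SE, edgeR adjusted p = 2.56e-05), and fell under the fold threshold without mouse 21.

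Of 21 immediate early genes 1 was a DEG, downward, beside 0.453% of all tested genes. Egr3, a transcription factor induced by neuronal activity, read 298, 161, 187 and 105 CPM at day 3 and 38.6, 86.4, 156 and 74.3 CPM at day 7, a log2 fold change of -1.08 ± 0.25 (SE, edgeR adjusted p = 0.00639). The call was lost without mouse 30, 42, 21, 23 or 35. Fos, Arc and Npas4 were not called, and mouse 44 of day 3 was the lowest of the 8 libraries for each of them, with 18.1, 32.1 and 6.36 CPM. Bdnf, the neurotrophin, read 539, 283, 241 and 97.4 CPM and 140, 320, 294 and 365 CPM.

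Of 15 neuropeptide and granin genes 1 rose and 1 fell, beside 1.07% and 0.453% of all tested genes. Trh, thyrotropin-releasing hormone, read 6.43, 5.43, 6.46 and 0.631 CPM at day 3 and 36.5, 61.1, 147 and 118 CPM at day 7, with saline medians of 0.0892 and 0.255, a log2 fold change of 4.25 ± 0.88 (SE, edgeR adjusted p = 0.00251). The call was lost without mouse 30, 42 or 44. Gal, galanin, read 22.2, 6.81, 6.71 and 10.4 CPM and then 1.92, 1.07, 2.26 and 3.86 CPM, a log2 fold change of -2.33 ± 0.53 (SE, edgeR adjusted p = 0.00608), with its call lost without mouse 30, 21 or 26 and under limma-voom, where the log2 fold change was -1.49. Both peptides separated the days without overlap. Among 14 RGS genes 1 rose and 1 fell, beside the same shares of all tested genes. Rgs4 fell, and Rgs10, a regulator of microglia, rose from 40.4 to 52.8 CPM to 75.7 to 158 CPM. The log2 fold change of Rgs10 was 1.30 ± 0.28 (SE), with the call lost without mouse 30, 42, 44, 21 or 35.

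The remaining lists held few DEG, where 1.07% of all tested genes were called upward and 0.453% downward. Wnt7b, a ligand of canonical Wnt signaling, read 119, 90.5, 90.1 and 121 CPM at day 3 and 50.3, 61.3, 65.9 and 39.2 CPM at day 7 (log2 fold change -0.95 ± 0.17 SE, edgeR adjusted p = 0.000455), the only DEG of 32 genes of Wnt receptors, antagonists and feedback targets. Its saline medians were 39.6 and 39.3 CPM. Srebf1, which drives fatty acid synthesis, rose from 60.3 to 65.6 CPM to 73.5 to 146 CPM, the only DEG of 24 cholesterol and fatty acid genes, and its call was lost in 6 of 8 fits that left out a mouse, the exceptions being mice 23 and 26. Among 18 iron and oxidative stress genes Nqo1, a quinone reductase, rose (log2 fold change 0.67 ± 0.14 SE) and Srxn1, sulfiredoxin, fell (log2 fold change -0.69 ± 0.15 SE). Both calls were lost without mouse 30 or 21, that of Nqo1 also without mouse 35 and that of Srxn1 without mouse 42. Hmcn2 was the only DEG of 25 extracellular matrix genes, and Nes the only one of 15 neurogenesis genes.

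By edgeR none was called of 21 vessel genes (median -0.22), 20 tested respiratory chain genes (0.04), 21 p53 targets (0.23) or 16 TGF-beta and activin genes (0.19). Slc2a1, the glucose transporter of the blood-brain barrier, read 87.8 to 161 CPM and 79.7 to 125 CPM. Sdha and Cox4i1, subunits of respiratory complexes, had log2 fold changes of 0.11 and 0.21. Ccng1, a p53 target, read 61.6 to 110 CPM and 74.2 to 110 CPM. Smad3 and Acvr1, a transducer and a receptor of TGF-beta family signals, had log2 fold changes of -0.61 and -0.53 with adjusted p of 0.0835 and 0.0237 by edgeR. Acvr1 was called by limma-voom, and by edgeR without mouse 23 or with library size as the scaling.

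The change between days after saline asked what time after surgery alone did. In the EZ of saline mice edgeR called 0 genes (0% of those tested), with 691 at an unadjusted p under 0.05, and DESeq2 called 3. The difference of the day change, kainate minus saline, was called for 31 genes (0.145%), 24 higher and 7 lower, of which 29 were also among the 326 DEG of the day comparison. Reln (log2 difference 1.76, edgeR adjusted p = 0.00102), Abat (0.95, 0.00184), Aldoc (1.09, 0.00184) and Fads2, a fatty acid desaturase (0.79, 0.00102), led the higher genes. Fads2 read 143 to 150 CPM at day 3 and 192 to 236 CPM at day 7. Syndig1l (-2.38, 0.000165), Rgs4 (-1.97, 0.00184), Pdlim7 (-0.79, 0.00317) and Slc12a3 (-3.39, 0.00328) led the lower genes. In saline the day change of Reln was -0.14 and that of Rgs4 -0.09. The count was 3 when the 16 EZ libraries of days 3 and 7 were fitted alone. It was 83 without kainate mouse 23 and 58 without kainate mouse 26. It was 16 without mouse 30, 17 without mouse 42, 16 without mouse 21 and 20 without mouse 35, and between 8 and 16 without saline mouse 29, 37, 41, 20, 33, 34 or 89.

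The opposite side of the same kainate mice changed mostly downwards. In the PIZ 189 genes were called between the days, 26 raised (0.122%) and 163 lowered (0.762%). Raised on both sides were 19 genes, of 229 in the EZ and 26 in the PIZ, and lowered on both sides were 12, of 97 and 163. The PIZ count was 64 without mouse 30, 101 without mouse 44, 92 without mouse 21 and 116 without mouse 26 or mouse 35. The sides come from the same 8 mice, so these counts are not independent of each other. The difference of the day change, EZ minus PIZ, was called for 37 genes (0.173%), 33 higher and 4 lower. With the mouse as a block 1 gene was called, and it was not among the 37. Leaving out mouse 21 or 42 gave 0, mouse 38 gave 5, mouse 35 gave 9, mouse 30 gave 15, mouse 26 gave 128 and mouse 23 gave 151.

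The genes with the smallest p for the difference between the sides follow. None of them was called with the mouse as a block in the kainate libraries of days 3 and 7 alone. P2ry12 read 85.1 to 88.8 CPM in the PIZ at day 3 and 37 to 58.7 CPM at day 7, where its change was not called (edgeR adjusted p = 0.0169), and its day change differed between the sides by 2.02 on the log2 scale (edgeR adjusted p = 0.000923). Siglech read 41.4 to 52 CPM and 16.9 to 31.4 CPM in the PIZ (log2 difference 2.50). Aldh1l1 fell in the PIZ from 127 to 163 CPM to 37.1 to 45.1 CPM, while it was not called in the EZ (log2 difference 1.59). Gpam, a glycerolipid acyltransferase, read 154 to 175 CPM and 89.5 to 129 CPM in the PIZ and 144 to 177 CPM and 214 to 279 CPM in the EZ (log2 difference 1.19). The 4 lower genes were 9430081H08Rik (-3.26), Abtb3 (-1.79), Dok4 (-0.84) and Gnb5, a G protein beta subunit that partners RGS proteins (-0.78). Gnb5 read 76.4 to 115 CPM at day 3 and 42.3 to 68.3 CPM at day 7 in the EZ.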

How the data were processed

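RNA was extracted at the same time for all dorsal dentate gyri, and polyA libraries were made with a stranded Illumina kit and sequenced as paired ends. Per the submitters' processing notes, reads passed fastp 0.20.1 and HISAT2 2.2.1 (GRCm39) and were counted with featureCounts of Subread 1.6.4. The authors deposited a table of raw counts per gene and library, 55357 genes in 48 libraries, counted by strand with multi-mapping and overlapping reads included. A multi-mapping read was counted at its primary alignment, so reads of closely related genes can be counted for the wrong member. DESeq2 1.32.0 and R 4.1.1 are also named there. Gene positions came from a newer Gencode annotation on GRCm39.

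Genes were filtered with filterByExpr, which left 21390 with 99.9% of counts, normalized by TMM and tested with edgeR 4.0.16 (quasi-likelihood, R 4.3.3) as contrasts of 12 group means. The SE was the log2 fold change divided by the root of F, so it rests on the spread shared by all 12 groups. The log2 CPM used a prior count of 2. Alternatives used limma 3.58.1 and DESeq2 1.42.0, and the code was tested on simulated data. Figures used matplotlib 3.10.9. Samples were grouped by the labels, and replicates were different mice. With 4 against 4 the smallest exact permutation p is 0.0286.

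Named genes were the 10 raised and 10 lowered with the smallest p, up to 4 called genes a direction of each list or else its 2 most abundant members, and the 4 leading genes a direction of each difference. Further genes (Mlc1 and uncalled list members outside this rule, and those of the closing observations) were chosen after their values were seen, and a few genes are not reported here. The comparison, the 40 lists (675 genes, 648 tested) and the motifs were chosen with earlier results of these data known. The sides of a mouse come from the same animal, but the main fit held no term for the mouse, which entered as a block in alternatives only. The correlation between the sides of a mouse, as deviations from the group means, was -0.0536 to 0.272 over the 8 kainate mice. The consensus correlation over 24 mice was 0.163.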

Additional observations from a re-analysis of the deposited data

Results flagged for a closer look

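The day change in the EZ differed between kainate and saline mice for 31 genes. The log2 difference was 1.76 for Reln, 0.787 for Fads2, 0.947 for Abat and 1.09 for Aldoc. It was -2.38 for Syndig1l, -1.97 for Rgs4, -0.794 for Pdlim7 and -3.39 for Slc12a3.

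In kainate mice the day change differed between EZ and PIZ for 37 genes, of which none remained with the mouse as a block. The log2 difference was 1.59 for Aldh1l1, 2.02 for P2ry12, 1.19 for Gpam and 2.50 for Siglech. It was -3.26 for 9430081H08Rik, -1.79 for Abtb3, -0.778 for Gnb5 and -0.839 for Dok4.

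In 5 groups a mouse lay far from the other 3, where chance gives such a gap in about 1 of 20 groups and 100 were examined. Ccne2 was lowest in mouse 23 of day 7, at 1.94 CPM. Gnb5 was highest in mouse 30 of day 3, at 115 CPM, and Lag3 was lowest in the same mouse, at 7.5 CPM. P2ry12 was highest in mouse 44 of day 3, at 88.1 CPM. Slc12a3 was highest in mouse 26 of day 7, at 0.741 CPM.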

How the results depend on the processing

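The count of 326 genes between the days became 1549 with limma-voom quality weights, 108 in the 24 EZ libraries, 0 in the 8 libraries alone, 794 at an adjusted p under 0.05 and 29 when tested against a 1.5-fold change. It was 486 with DESeq2, and 444 with the replicate block, the mouse as a random effect, where Chil3 was the named gene that lost its call. With library size as the scaling it was 302, of which 58.6% were raised against 70.2% with TMM, and Iigp1, H2-T22, P2ry13, Hcn2, Srebf1 and Gpam lost their calls. Without single mice it ranged from 137 to 705. Without mice 21 and 35, a choice made after seeing the data, 44.3% of 262 were raised. The kainate minus saline difference, 31 genes, became 98 with DESeq2, 3 in 16 libraries, 104 at an adjusted p under 0.05 and 8 to 83 without single mice. The EZ minus PIZ difference, 37 genes, became 188 with DESeq2, 322 at an adjusted p under 0.05, 1 with the mouse as a fixed block and 0 to 151 without single mice. The saline count of 0 became 3 with DESeq2 and 0 to 0 without single mice. The PIZ count of 189 became 305 with DESeq2 and 64 to 189 without single mice. The causes were not tested. Of 50 named genes that were called, 0 changed direction in any alternative and 0 were called in every alternative, while 10 of 42 uncalled ones were called in some, and 18 of 40 list medians changed sign in at least 1 of 12.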

Other observations

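Further called genes belong to no list above. Sv2c, a synaptic vesicle protein, read 380, 205, 286 and 380 CPM at day 3 and 29, 128, 105 and 45.5 CPM at day 7, with saline medians of 68.7 and 56.5, a log2 fold change of -2.03 ± 0.33 (SE, edgeR adjusted p = 0.000173). The carbonic anhydrases Car12 and Car4 both fell, Car12 from 104 to 132 CPM to 12.7 to 59.4 CPM and Car4 from 26.4 to 37.3 CPM to 9.83 to 15.8 CPM. The saline medians of Car4 were 32.6 and 32.9 CPM, so Car4 went below saline at day 7. Bmp2, a bone morphogenetic protein, fell from 2.69 to 8.68 CPM to 0.612 to 1.88 CPM.

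Among raised genes Cst3, the protease inhibitor cystatin C, read 944 to 1220 CPM at day 3 and 2030 to 2980 CPM at day 7, and Clu, clusterin, read 673 to 735 CPM and 974 to 1440 CPM. Dio2, which activates thyroid hormone in astrocytes, read 45.3 to 50.3 CPM and 77 to 94.6 CPM. Fgf1, a fibroblast growth factor, read 26.9 to 40.7 CPM and 49.2 to 80.9 CPM. All of these separated the days without overlap.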
